A study of Mus musculus with 9 samples.

Results

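The ADAM and ADAMTS metalloproteases were examined in lumbar (L3/L4) dorsal root ganglia (DRG) after sciatic nerve injury. Members were chosen by name alone, as every non-control probe whose gene name on the array began with Adam and a digit, with Adamts or with Adamtsl. This gave 50 genes, read by 96 probes, of 27962 named genes on the array. There were 28 ADAMs, 17 ADAMTSs and 5 ADAMTS-like genes. The brightest probe stood for each gene. The family was picked with its injury response already known, so the counts below describe it and are no independent evidence about it.

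RNA came from adult mice that all carried the labels cre.neg and jun.wt, as 4 uninjured DRG samples (arrays C1 to C4) and 5 samples taken 3 days after sciatic nerve transection (T1 to T5). The labels and methods give that time, while the results text of the study gives an earlier one, and the labels identify no animals and do not say how many ganglia or mice went into a sample. Each sample was labelled with Cy5 and hybridised with Cy3-labelled universal mouse reference RNA to a 2-colour Agilent array, with no dye swap. A value below is the log2 ratio of DRG over reference for 1 probe, which can be compared between arrays and not between probes.

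ADAMs are membrane-anchored proteases that cut the ectodomains of growth factors, cytokine receptors and adhesion molecules from the cell surface, a step called shedding. Members that lack the catalytic zinc-binding motif, such as Adam11, Adam22 and Adam23, act as adhesion or receptor proteins in neurons, and a large group is best known from testis and epididymis. ADAMTSs are secreted proteases that cut matrix proteins, among them the chondroitin sulfate proteoglycans that limit axon growth, and ADAMTS-like proteins share their ancillary domains without the protease.

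Of the 50 members, 43 were above background in Cy5 on at least 4 of the 9 arrays and were tested, and 38 were above background on all 9. Adam2, Adam22, Adam30 and Adamts6 passed with exactly 4 arrays. The 7 that did not pass were Adam6 and Adam7, Adam12, Adam24, Adam29, Adam32 and Adamts13, among which Adam6 came nearest with 2 arrays. Adam12, which is expressed in growing muscle and bone, was above background on none with its brightest probe, and so was Adamts13, the protease of von Willebrand factor. Being above background is a low bar here, since all 4 sperm chromatin genes of a testis list (Prm1, Prm2, Tnp1 and Tnp2) were above background on all 9 arrays too. No member was saturated.

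Among the 43 tested members, 4 rose after injury and 2 fell (limma, adjusted p under 0.05 by Benjamini-Hochberg over 21097 genes). In either direction 14% of the members were called, against 25.4% of all genes tested, of which 11.4% were called higher and 14% lower. The members that rose were Adam8, Adamts1, Adam19 and Adam15, and those that fell were Adam5 and Adamts15. Most of the family stayed near 0, with 33 of 43 log2 fold changes between -0.2 and 0.2 and a median of 0.02, against 0.00065 over all genes. The median absolute change was 0.11 for the members and 0.14 for all genes. Past the threshold and also past 1.5-fold were 3 members, all higher, and 5.93% of all genes, 3.33% higher. Injured arrays all lay above the uninjured arrays for 4 members and all below for 1, where 10.8% and 13.1% of all genes did so.

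**Figure D1:**
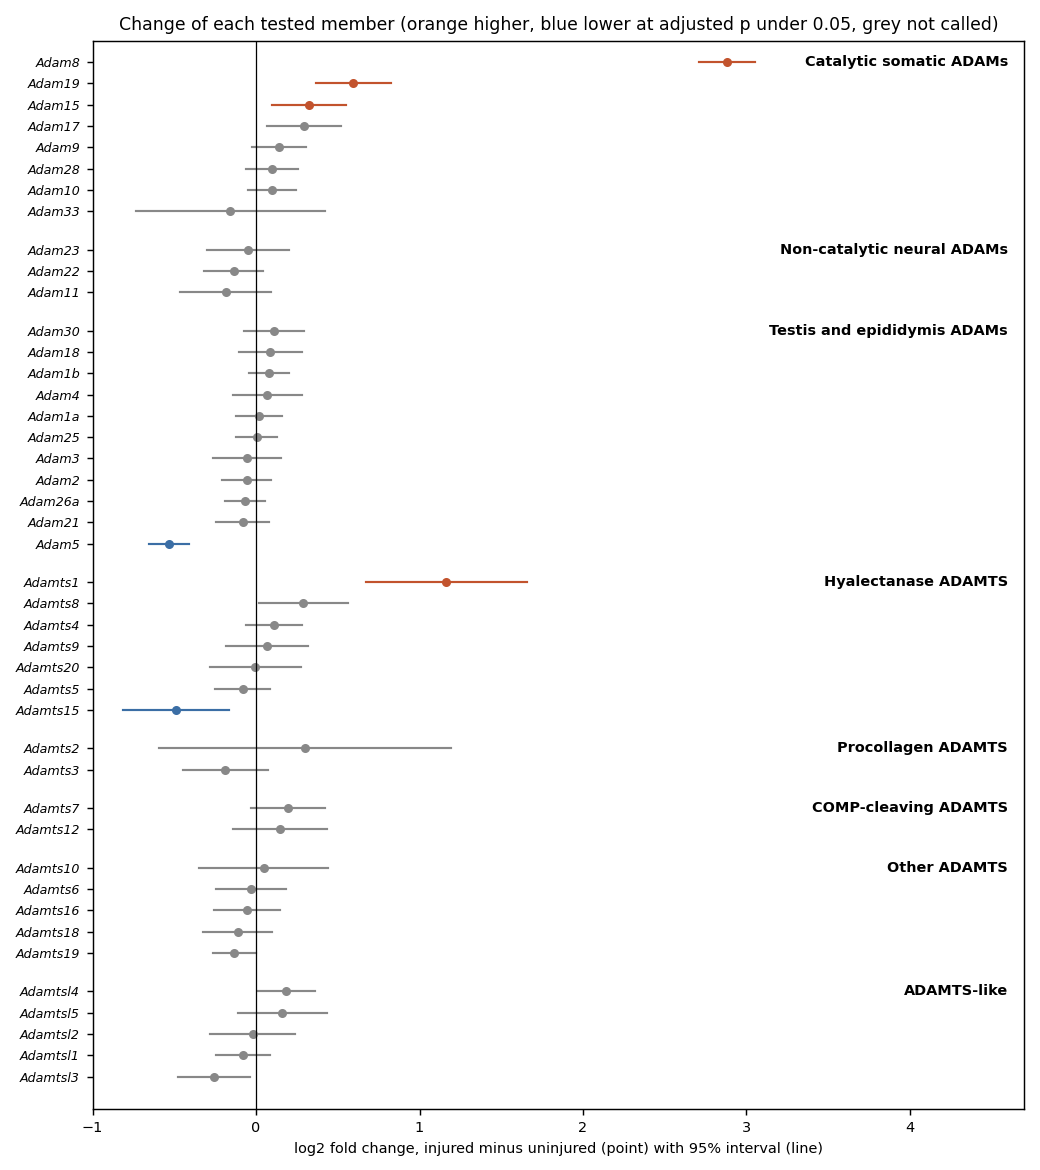
Log2 fold change (x axis, injured minus uninjured) of the 43 tested members, grouped by class, with a 95% interval from limma as a line. Adam8 at 2.88 and Adamts1 at 1.16 stand apart from the rest, and 33 of the points lie between -0.2 and 0.2.

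Adam8 is an active sheddase known from leukocytes and from reactive cells in inflamed tissue, and it had the largest change of the family. On uninjured arrays C1 to C4 its log2 ratio was -2.19, -2.11, -2.26 and -2.37. On injured arrays T1 to T5 it was 0.74, 0.76, 0.46, 0.65 and 0.65. The groups were far apart, with SDs of 0.108 on the uninjured and 0.118 on the injured arrays. Its log2 fold change was 2.88 (SE 0.0774, adjusted p = 5.75e-09 by limma), a 7.37-fold rise, and the two-sided exact permutation p was 0.00794, the smallest that the splits of 9 arrays into 4 and 5 can give. The change lay in the DRG channel, where Cy5 differed by 2.72 and Cy3 by -0.18. Adam8 was read by a single probe, on chromosome 7 at 136392816 to 136392875 (mm7, minus strand).

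Adamts1 encodes a secreted protease of versican and aggrecan and has been known as an inflammation-induced gene. Its log2 ratio was -1.65, -1.74, -0.85 and -1.01 on the uninjured arrays. On the injured arrays it was -0.20, 0.18, -0.46, -0.51 and 0.25. All injured arrays were higher, but both groups spread widely, with C3 and C4 highest among the uninjured and T2 and T5 among the injured. The log2 fold change was 1.16 (SE 0.222, adjusted p = 0.00339 by limma), or 2.24-fold. A dimmer probe of Adamts1 gave 0.89, again with no overlap between the groups.

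Adam19, a sheddase of neuregulin and related growth factors, also rose. The uninjured arrays had log2 ratios of 0.61, 1.07, 0.55 and 0.62 and the injured arrays 1.39, 1.34, 1.17, 1.32 and 1.34. C2 stood above the other uninjured arrays yet below every injured array. The log2 fold change was 0.60 (SE 0.104, adjusted p = 0.00203 by limma), or 1.51-fold. Its 3 probes did not move alike, as the dimmer ones gave 0.36 and 0.09 with overlapping groups.

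Adam15 encodes a disintegrin protease of endothelium and other cells and had the smallest rise of the 4, with a log2 fold change of 0.32 (SE 0.102, adjusted p = 0.039 by limma). Uninjured values were 0.14, 0.26, 0.20 and 0.32, and injured values were 0.43, 0.54, 0.46, 0.44 and 0.92, so that T5 alone stood well above the rest. Its dimmer probe gave 0.30 with overlapping groups. The call was lost without array C1, C2, C3, C4 or T2, where the adjusted p was above 0.05.

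Adam5 belongs to the testis group and fell. Its uninjured log2 ratios were 0.82, 0.91, 0.97 and 0.91, and its injured ones 0.44, 0.31, 0.34, 0.37 and 0.38. Each group was tight and all injured arrays lay lower, with a log2 fold change of -0.53 (SE 0.0548, adjusted p = 7.37e-05 by limma). The dimmer probe of the same transcript, above background on 5 arrays, gave -0.08 with overlapping groups. No other member of the testis and epididymis class was called, and the 11 tested had a median log2 fold change of 0.004.

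Adamts15, a protease of aggrecan and versican, fell, being lower on 4 of the 5 injured arrays. The uninjured values were 3.90, 3.74, 3.79 and 3.89. The injured values were 3.30, 2.90, 3.34, 3.34 and 3.83, so that T5 lay among the uninjured arrays and the others below them. The log2 fold change was -0.49 (SE 0.147, adjusted p = 0.0329 by limma). The call was lost when any array other than T2 or T5 was left out.

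**Figure D2:**
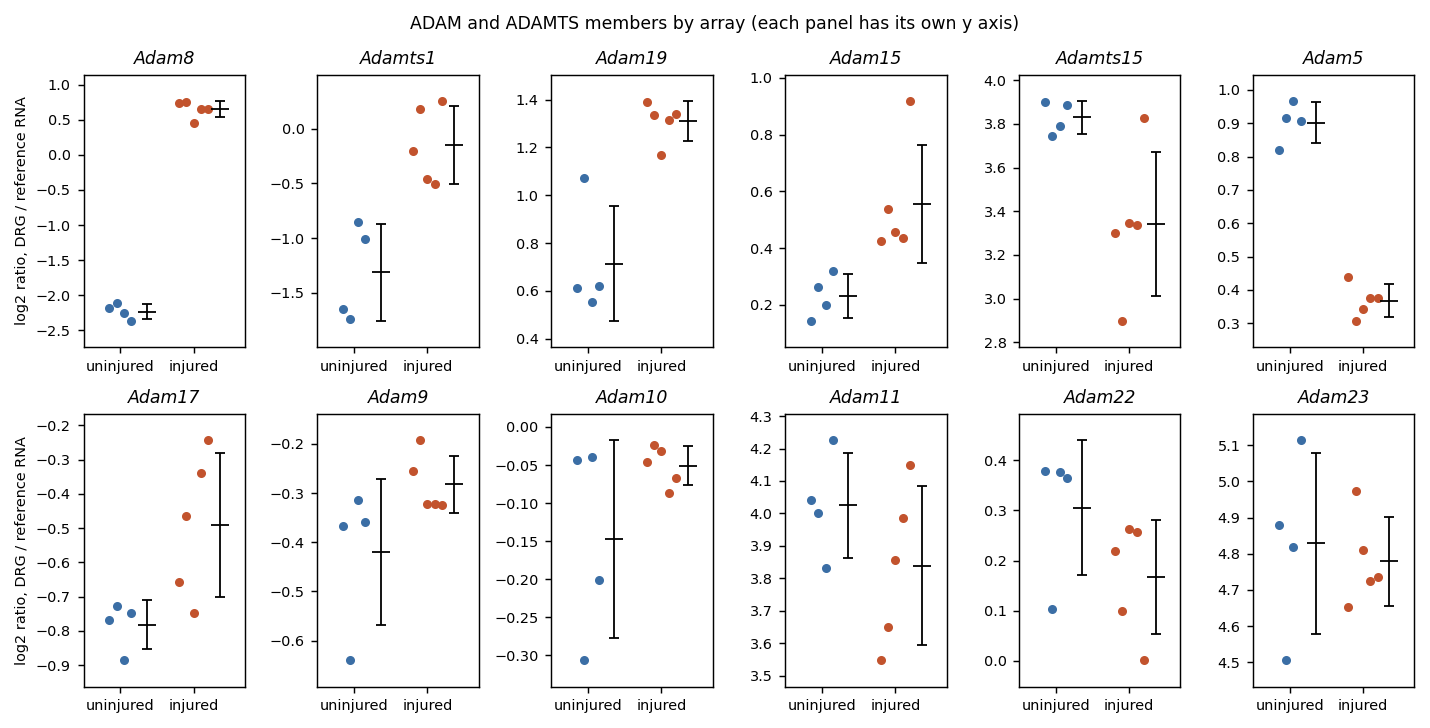
Log2 ratio of DRG over reference RNA (y axis, scaled to each panel) on the 4 uninjured and 5 injured arrays for the 6 called members (top row) and 6 members of prior interest (bottom row), with the group mean and SD beside the points. The groups do not overlap for Adam8, Adamts1, Adam19, Adam15 and Adam5, and in Adamts15 injured array T5 (3.83) lies among the uninjured arrays.

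The promoters of the 3 genes that were called and rose by more than 1.5-fold are shown. These genes share that threshold, and their arrays did not rank alike within the groups. They are RefSeq sequences of build GRCm38.p6, from 250 bases before to 50 bases after the start of transcription, 5′ to 3′ on the gene's strand. Capitals mark matches, on either strand, to an AP-1 site spelled TGANTCA or a CRE spelled TGACGTCA. They also mark a GC box, searched for in the promoter as the hexamer GGGCGG. The CCAAT box was searched for by the letters of its name, and the other core element, the TATA box, by those letters followed by a further pair of A. None of the marked matches overlap.
Adam8, chr7:139992513-139992812, minus strand: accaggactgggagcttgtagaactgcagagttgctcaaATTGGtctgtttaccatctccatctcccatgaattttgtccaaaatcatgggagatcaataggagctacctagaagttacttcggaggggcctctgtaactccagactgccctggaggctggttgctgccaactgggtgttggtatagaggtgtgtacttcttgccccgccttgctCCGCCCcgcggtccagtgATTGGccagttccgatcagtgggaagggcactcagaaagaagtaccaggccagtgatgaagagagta
Adamts1, chr16:85803064-85803363, minus strand: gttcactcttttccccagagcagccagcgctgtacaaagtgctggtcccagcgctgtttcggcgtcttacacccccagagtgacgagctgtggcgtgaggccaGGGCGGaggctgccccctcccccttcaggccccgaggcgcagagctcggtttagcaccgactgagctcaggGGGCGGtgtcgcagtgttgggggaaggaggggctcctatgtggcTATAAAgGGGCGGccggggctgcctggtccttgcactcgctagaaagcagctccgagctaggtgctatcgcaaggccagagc
Adam19, chr11:46055734-46056033, plus strand: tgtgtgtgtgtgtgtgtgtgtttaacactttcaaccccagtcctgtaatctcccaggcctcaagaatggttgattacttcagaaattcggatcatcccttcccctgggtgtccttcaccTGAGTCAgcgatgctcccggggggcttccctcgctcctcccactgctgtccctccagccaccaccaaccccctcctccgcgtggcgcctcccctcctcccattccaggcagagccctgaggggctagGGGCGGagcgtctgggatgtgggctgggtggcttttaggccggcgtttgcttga
The Adam8 window held a GC box and 2 CCAAT boxes, and the Adamts1 window 3 GC boxes and a TATA box. The Adam19 window held a match to the AP-1 letters 131 bases before the start and a GC box, and it was chosen out of 3 annotated starts for that match, which neither of the others had. Over all 32851 promoters of this length, 7.81% held the AP-1 letters, 1.79% the CRE, 35.7% the GC box, 37.4% the CCAAT box and 13.6% the TATA box. Promoters were at hand for 24 of the 50 members, 26 in all, and 4 of the 26 held the AP-1 letters and none the CRE. These matches describe the sequence and show no binding.

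The catalytic ADAMs of somatic tissues included the 3 ADAMs that rose, and 8 of the 9 were tested, with a median log2 fold change of 0.21. Adam17, the main sheddase of TNF and of EGF receptor ligands, had log2 ratios of -0.77, -0.73, -0.89 and -0.75 on the uninjured arrays. The injured arrays gave -0.66, -0.47, -0.75, -0.34 and -0.24. Only T3 lay among the uninjured values, and the log2 fold change of 0.29 (SE 0.102) missed the threshold with an adjusted p of 0.0611 by limma. The other probe of Adam17 gave 0.30. Adam17 passed the threshold without T1, without T3, with array weights and with slide as a random block. Over all genes, 6435 were called with array weights and 7474 with slide as a random block, against 5354 in the fit used here. Without T1 and without T3 the counts were 5288 and 5058.

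Adam10, the constitutive sheddase of Notch and many neuronal adhesion proteins, was at -0.04, -0.31, -0.04 and -0.20 on the uninjured arrays. On the injured arrays it was at -0.05, -0.02, -0.03, -0.09 and -0.07. The groups overlapped, and the 95% interval of its log2 fold change ran from -0.05 to 0.24 around 0.10, so that a change of more than 1.5-fold lay outside it. Adam9, a sheddase of wide expression, had a log2 fold change of 0.14 with an interval from -0.03 to 0.30, and C2 at -0.64 lay below all other arrays. The direction of Adam10 turned with slide as a fixed block (-0.0029).

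None of the 3 non-catalytic ADAMs of neurons was called by limma with the processing used here. None reached an unadjusted p under 0.05, where 7740 of all 21097 genes tested did. Adam23, a receptor for LGI proteins, had log2 ratios of 4.88, 4.51, 4.82 and 5.11 on the uninjured arrays and 4.65, 4.97, 4.81, 4.72 and 4.74 on the injured. These overlapped in full, with a log2 fold change of -0.05 (SE 0.113). Adam22, the LGI receptor that is part of potassium channel complexes on myelinated axons, was above background on 4 of 4 uninjured and 0 of 5 injured arrays. It passed the filter through the uninjured arrays alone, so it had to differ in this count. Its injured level was thus not measured above background. The mean normalized Cy5 signals stood 1.17-fold apart, with the uninjured higher, as a plain ratio of means and not a minimum. The log2 ratios of Adam22 were 0.38, 0.10, 0.38 and 0.36 against 0.22, 0.10, 0.26, 0.26 and 0.00, where C2 lay among the injured arrays. The log2 fold change was -0.14 (SE 0.0817, adjusted p = 0.257 by limma).

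Adam11, found mainly on neurons, had 3 probes that differed in size. The brightest gave 4.04, 4.002, 3.83 and 4.23 on the uninjured and 3.55, 3.65, 3.86, 3.99 and 4.15 on the injured arrays, overlapping and with a log2 fold change of -0.19 (SE 0.126, adjusted p = 0.321 by limma). The Cy3 signal of that probe differed by -0.49 between the groups, although the reference RNA was the same on all arrays. The dimmer probes gave -0.28 and -0.55, and on each of them all injured arrays lay below the uninjured. The value averaged over the 3 probes was -0.34 and past the threshold, as was the Cy5 channel taken alone at -0.69.

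**Figure D3:**
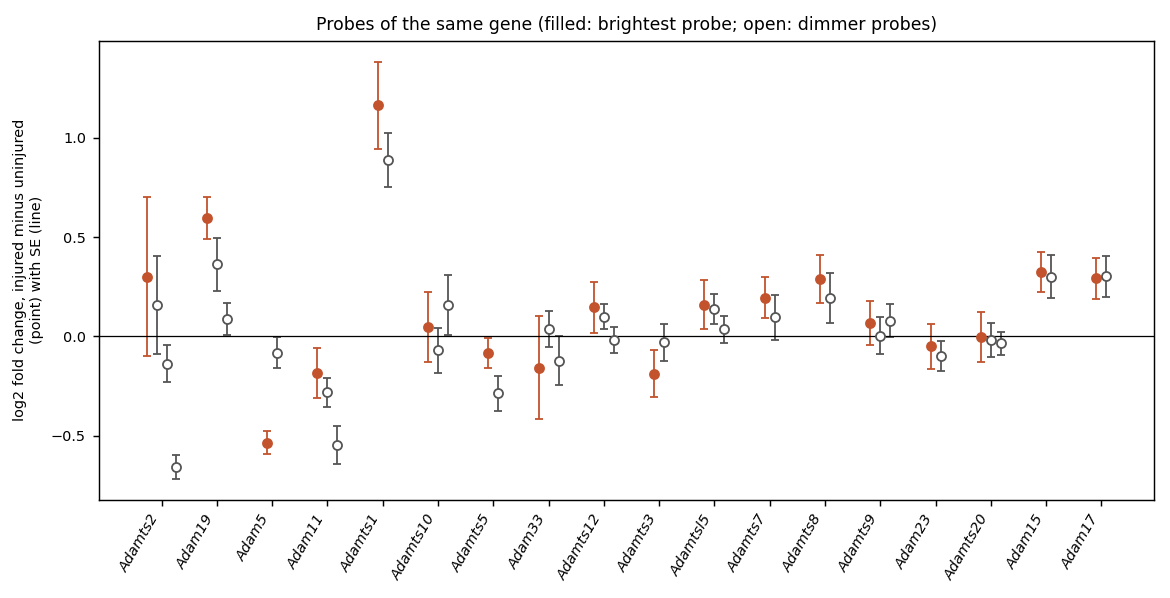
Log2 fold change (y axis, injured minus uninjured) with its SE for every probe above the filter in the 18 members that had more than 1, ordered by the range within the gene. The probes of Adam17 (0.29 and 0.30) and Adam15 (0.32 and 0.30) lie together, while those of Adamts2 run from -0.66 to 0.30.

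Of the 7 ADAMTSs that cleave hyaluronan-binding proteoglycans all were tested, and 1 rose and 1 fell. Adamts4, an aggrecanase induced by inflammation in many tissues, had a log2 fold change of 0.11 (95% interval -0.06 to 0.28), with T5 at -1.27 above all other arrays. Adamts5, the major aggrecanase of cartilage, had a log2 fold change of -0.08 (interval -0.25 to 0.09), while its dimmer probe gave -0.29. Adamts9 gave 0.07 (interval -0.18 to 0.32) and its direction turned under 5 other settings, among them median centring (-0.01) and the Cy5 channel alone (-0.04). A change of more than 1.5-fold thus lay outside the intervals of all 3. Neither of the 2 tested procollagen proteases and neither of the 2 proteases of COMP was called by limma. None of the 5 other ADAMTSs and none of the 5 ADAMTS-like genes was called either. An unadjusted limma p under 0.05 was found for 1 of the other ADAMTSs and 2 of the ADAMTS-like genes. Such a p was found for 7740 of all 21097 genes tested and for 11 of the 43 members.

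Adamts2, the procollagen N-proteinase, is named after its values were seen because its 4 probes disagreed most. The brightest had -2.27, -2.05, -0.84 and -1.20 on the uninjured and -1.99, -1.02, -1.72, -1.65 and -0.07 on the injured arrays, a log2 fold change of 0.30 (SE 0.404). The probe for cDNA AK220464 had 0.81, 0.71, 0.75 and 0.69 against -0.01, 0.11, 0.04, 0.10 and 0.18, so that all injured arrays lay below, with a difference of -0.66. The remaining probes gave 0.16 and -0.14. No single direction describes Adamts2.

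Whole ganglia hold many cell types, and fewer cells of a type cannot be told apart from less RNA per cell. Over all genes 11.4% were called higher and 14% lower, and with so few markers the counts below describe each list only. All 10 sensory neuron markers were above background on every array, and 2 of them fell, Isl1 by 0.49 and Scn11a by 0.45 on the log2 scale. Of 5 satellite glia markers 1 rose, Glul by 0.78, and of 4 endothelium markers 1 rose, Tek by 0.47. Of 8 macrophage markers 2 rose, Aif1 by 0.90 and Itgam by 0.50, and the mean of the list relative to the uninjured mean ran from -0.38 to 0.34 on uninjured and from 0.08 to 0.99 on injured arrays. Of 3 tested neutrophil markers Mpo rose, by 1.49, and S100a8 (log2 fold change 1.82, adjusted p = 0.0577 by limma) and S100a9 (0.98, adjusted p = 0.055) just missed the threshold, with list means from -0.53 to 0.56 and from 0.54 to 3.03. Adam8 had nearly the same value on T1 (macrophage mean 0.08, neutrophil mean 0.54) as on T2 (0.99 and 3.03), at 0.74 and 0.76, and the part of leukocytes in its rise was not tested. The neutrophil mean was highest on T2 (3.03) and T4 (1.80). None of 3 red blood cell markers was called. Their mean was 1.19 on T2, 0.49 on T4 and 1.22 on T5, against -0.15 on T1 and 0.06 on T3. On uninjured arrays it lay between -0.16 and 0.23. The part of blood left in the samples in the neutrophil values was not tested. Skeletal muscle markers were raised on T2 (2.36) and T4 (3.83). Without both arrays Adam8, Adamts1 and Adam19 were still called higher and Adam5 lower, while Adam15 and Adamts15 were not called.

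No fibroblast marker of 6 was called by limma, and none had an unadjusted p under 0.05, where 7740 of 21097 genes tested did. The fibroblast list mean was 0.74 on T5, 0.52 on C3, 0.43 on T2 and 0.27 on C4, which were the highest arrays. It was lowest on C2, at -0.57. The brightest probe of Adamts2 was highest on the same 4 arrays. Within the uninjured group Adamts1 was likewise high on C3 and C4, and within the injured group on T5 and T2. Adam33, a protease of mesenchymal cells named here after its values were seen, was high on C3 (1.89), T5 (1.80) and C4 (1.48) but not on T2 (0.90), which lay below C1, T1 and T4. The macrophage and endothelium lists were also highest on C3 and C4 within the uninjured group and on T2 and T5 within the injured group. The part of any of these cell types in the change of Adamts1 was not tested.

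**Figure D4:**
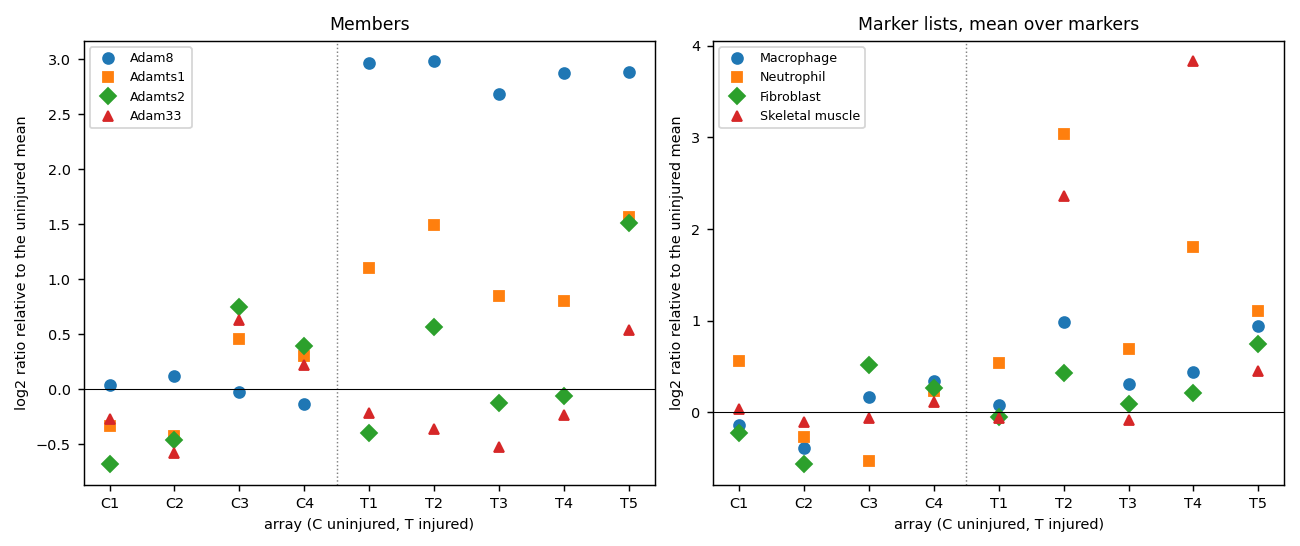
Log2 ratio relative to the uninjured mean (y axes) on each array for 4 members (left) and the mean of 4 marker lists (right), with a dotted line between uninjured and injured arrays. Adam8 is high on all 5 injured arrays, on which the macrophage mean ranges from 0.08 (T1) to 0.99 (T2).

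Slides held the groups unequally, with C2, C3 and C4 on slide 1, C1, T1, T2 and T5 on slide 2, and T3 and T4 on slide 3. C1 was thus the only uninjured array that shared a slide with injured ones. For Adamts1 it lay low among the uninjured arrays (-1.65). With slide as a fixed block the comparison rests on slide 2, and 5.63% of all genes were called. In that fit the log2 fold change was 2.90 for Adam8 (adjusted p = 3.07e-05 by limma) and 1.72 for Adamts1 (adjusted p = 0.0177), and it was -0.45 for Adam5 (adjusted p = 0.0419). Adam19 at 0.74 (adjusted p = 0.0604), Adam15 at 0.49 (adjusted p = 0.158) and Adamts15 at -0.56 (adjusted p = 0.3) were not called there.

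Genes that regulate shedding were read from a list of inhibitors, trafficking partners and activating proteases, of which 17 of 18 were tested, 3 rose and 1 fell, with a median log2 fold change of 0.02. This is near the share called over all genes (25.4%). Timp1, an inhibitor of metalloproteases including Adam10, rose most, from between -4.41 and -3.92 on the uninjured to between -2.07 and -1.44 on the injured arrays, a log2 fold change of 2.38 (adjusted p = 1.41e-06 by limma). The inhibitor of Adam17, Timp3, had a log2 fold change of 0.09 (adjusted p = 0.395 by limma) and is named after its values were seen. Frmd8, which stabilises the iRhom partners of Adam17, rose by 0.50. Of the 5 tested tetraspanins that escort Adam10 out of the endoplasmic reticulum, Tspan17 rose by 0.37, Tspan5 fell by 0.35, and Tspan14, Tspan15 and Tspan33, with log2 fold changes of 0.02, 0.19 and 0.01, were not called. The groups of arrays did not overlap for Timp1, Frmd8, Tspan17 or Tspan5.

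Among substrates of Adam10 and Adam17, 32 of 33 were tested, of which 7 rose and 4 fell, with a median of 0.08, where 11.4% of all genes were called higher and 14% lower. The share that fell is thus near that over all genes. Areg, the EGF receptor ligand amphiregulin that Adam17 releases, had log2 ratios of -1.58, -1.77, -1.47 and -1.51 on the uninjured arrays. On the injured arrays it had 1.11, 1.49, 1.41, 1.51 and 1.27. This log2 fold change of 2.94 (adjusted p = 2.04e-08 by limma) was near that of Adam8. Tnfrsf1b, a TNF receptor shed by Adam17, rose by 1.24, the hyaluronan receptor Cd44 by 1.01 and the adhesion molecule Chl1, a substrate of Adam8 as well, by 0.86. The 4 that fell, named after their values were seen, were the guidance receptor Robo1 (-0.83), the receptor phosphatase Ptprf (-0.39), the adhesion molecule Cdh1 (-0.37) and the growth factor Nrg1 (-0.37). Without T2 and T4 the counts were 5 and 2, and with slide as a fixed block 2 and 1.

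Of 15 ADAMTS substrates, all tested, 1 rose and 1 fell, below the share over all genes (25.4%), with a median of 0.20. Comp, a matrix protein cut by Adamts7 and Adamts12, fell by 0.75 (adjusted p = 0.0166 by limma), and Col2a1 rose by 0.23 (adjusted p = 0.022 by limma). The groups overlapped for Comp, through T5 (3.96), and it was not called with slide as a fixed block or without C4. Col2a1 was among the genes not called under several other settings, such as median centring and the Cy5 channel alone. Several of these genes are matrix genes of fibroblasts, and 4 of the 15 are also in the fibroblast list.

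The list of LGI ligands and of potassium channel and scaffold partners of Adam22 had 12 of 13 genes tested, 0 that rose and 6 that fell, with a median of -0.34 against 0.00065 over all genes, of which 14% were called lower. Its mean relative to the uninjured arrays lay between -0.05 and 0.06 on the uninjured and between -0.31 and -0.25 on the injured arrays, without overlap. The channel subunits Kcna4 and Kcna2 fell by 0.85 and 0.72, Lgi2 by 0.41 and the axonal adhesion molecule Cntnap2 by 0.37. Kcna1, named here after its values were seen, had a log2 fold change of 0.0018 (adjusted p = 0.995 by limma). The median stayed below 0 under all settings tried, from -0.41 to -0.25. With the Cy5 channel alone 2 genes of this list were called higher and 5 lower, and with slide as a fixed block 2 were called lower and 0 higher. A single gene was called higher when probes were averaged, with slide as a random block, with array weights and without T1.

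**Figure D5:**
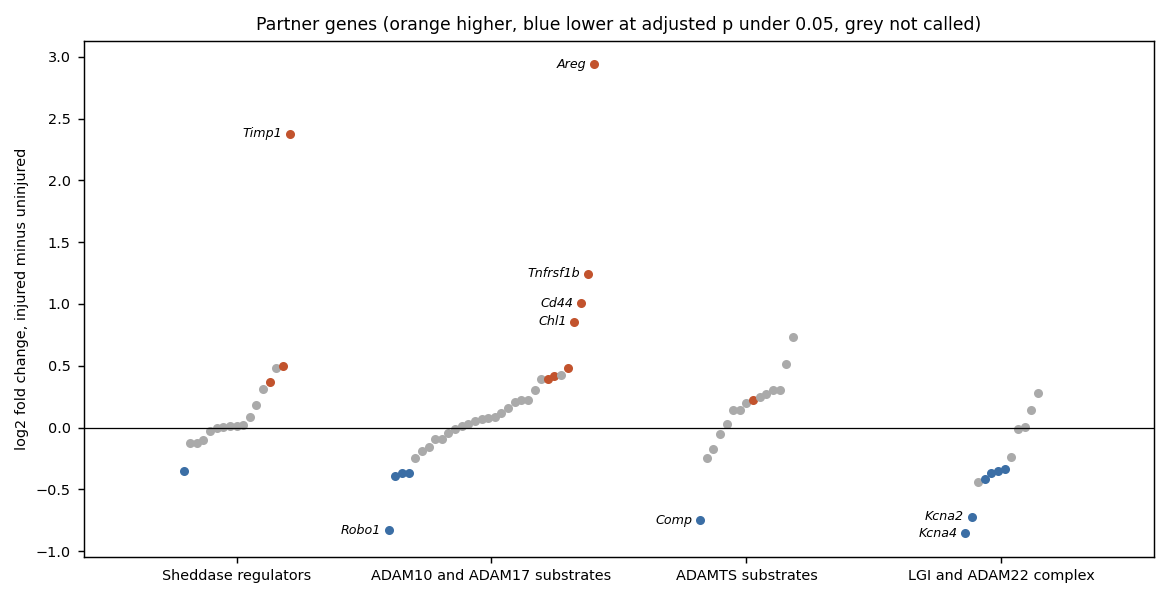
Log2 fold change (y axis, injured minus uninjured) of each tested gene in the 4 partner lists, ordered within its list, with called genes above 0.7 in absolute change named. Areg (2.94) and Timp1 (2.38) lie far above the rest, and no gene of the LGI and ADAM22 list was called higher in this fit, where the Cy5 channel alone called 2 higher.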

How the data were processed

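RNA of 4 uninjured and 5 injured L3/L4 DRG samples was hybridised to 9 Agilent 2-colour arrays. The deposited scanner files hold intensities, not normalized, as a mean over each spot and a median over its surroundings in both channels. Their log10 ratios come, per the file headers, from Agilent's own background model and dye normalization. The authors deposited log2 ratios of Cy5 over Cy3, normalized within arrays, and the slope of the values used here against them was between 1.00 and 1.01. limma is named in the submitters' processing notes, and further steps are not given in the sources used here.

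The intensities were read into limma 3.58.1 under R 4.3.3. Spots flagged as non-uniform were left out, because spots far under background pulled the background fit of 1 array off. Then followed normexp with an offset of 50, loess within arrays, averaging of repeated spots, removal of probes whose Cy5 signal was above background on fewer than 4 arrays, and the brightest probe per gene. Groups were compared with limma and Benjamini-Hochberg adjustment over 21097 genes, and single members with a two-sided exact permutation test over all splits of the arrays. Median Cy5 lay between 200 and 231 on uninjured and between 156 and 238 on injured arrays, and the number of arrays limits the precision. Labels identify no separate animals, so p-values measure the spread between these samples, which may be technical. The procedure was tested on simulated data.

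Members and lists were chosen with earlier results of these data known. Members were named if called, if their groups of arrays did not overlap, if above background in 1 group alone, or if on a list of members of prior interest, and partners and markers as the 4 largest changes called in a list. Other genes with values were named after these were seen. Probe coordinates are those of the files (mm7). Another 3 probes, under other names in the files, match Adamtsl3, Adam6b and Adamtsl1 in current annotation and were not used. Alternatives were other background, normalization, filter and probe choices, slide as a block, array weights, and leaving out arrays. Leaving out both arrays with raised muscle markers was chosen after seeing the data. Figures were drawn with matplotlib 3.10.9.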

Additional observations from a re-analysis of the deposited data

Results flagged for a closer look

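In 6 of the 30 groups of arrays examined for named members, 1 array lay far from the others of its group by Dixon's criterion, which chance meets in about 1 in 20 groups. On uninjured array C2 the log2 ratio was high for Adam19 (1.07, next 0.62), low for Adam9 (-0.64, next -0.37) and low for Adam22 (0.10, next 0.36). Uninjured array C1 was high for Adamts9 (0.20, next 0.01). Injured array T5 was high for Adam15 (0.92, next 0.54) and for Adamts4 (-1.27, next -1.52). T5 also had the highest fibroblast list mean (0.74) and the lowest median Cy5 signal (156), and the part of either in these values was not tested.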

How the results depend on the processing

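Adam8 and Adamts1 kept their direction and stayed past the threshold under all 24 settings tried, with log2 fold changes of 2.72 to 2.96 and 1.02 to 1.72. Adam5 did so under all 23 in which it was tested (-1.15 to -0.31), and Adam19 under 23 of 24 (0.35 to 0.74). Adam15 and Adamts15 kept their direction and were each called under 12 of 24. The cause was not tested. The count of members called higher was 4 and became 2 with slide as a fixed block, 6 with slide as a random block, and 3 to 5 with 1 array left out. The count called lower was 2 and became 0 above 1.5-fold, 1 with non-uniform spots kept, with both channels above background on all arrays, with slide as a fixed block or without T2 and T4, 5 with the Cy5 channel alone, and 1 to 3 with 1 array left out. All genes called numbered 5354, and 1250 above 1.5-fold. They numbered 2684 with median centring, 1187 with slide as a fixed block and 7474 with slide as a random block. The number was 6435 with array weights, 3013 without T2 and T4, and 4066 to 5496 with 1 array left out. The direction turned for Adam10 with slide as a fixed block (-0.0029), for Adam23 without C4 (0.046, where leaving out 1 array gave -0.16 to 0.046), and for Adamts9 with median centring (-0.010), the Cy5 channel alone (-0.036), slide as a fixed block (-0.079), array weights (-0.00017) and without T5 (-0.028, where leaving out 1 array gave -0.028 to 0.12). No paired analysis was possible because no replicate number in the labels is shared by the groups. The digits in array names such as C1 and T1 count arrays within a group and link no samples. Whether injured and uninjured samples came from the same mice is not known, so a pairing within mice was neither used nor excluded. Members not above background on enough arrays have no measured change here.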
